A study of Homo sapiens with 6 samples.

Results

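Immediate-early genes are transcribed within minutes of a growth factor, stress or prostaglandin signal, without new protein synthesis. Many encode transcription factors, among them the FOS and JUN proteins that pair to form AP-1, and the zinc finger factors of the EGR family. Another set, which includes the DUSP phosphatases and the Sprouty and Spred proteins, is induced by the mitogen-activated protein kinase (MAPK) pathways and then restrains them, so that the mRNA of these feedback genes is often read as an output of the ERK kinases. What was measured here is the mRNA level of both sets in tumor cells growing in log phase with serum. How far serum or handling had induced them was not measured.

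A set of 38 such genes was taken by symbol from the 34811 genes of the count table, and all 38 were found. The rule itself reads names alone, but the list of names was drawn up with earlier results of these data known. The 6 RNA-seq libraries came from OVCAR-3, an established human ovarian carcinoma cell line, stably transfected with a pRS HuSH-29 plasmid. In 3 libraries (OV3/SCR) the plasmid carried a scrambled shRNA and COX-1 was wild-type, and in the other 3 (OV3/COX1KD) it carried an shRNA against COX-1, the cyclooxygenase encoded by PTGS1. Both lines were selected with puromycin and grown in RPMI-1640 with serum to log phase, and each was represented by 1 clone sampled at 3 independent passages, so clone and knockdown cannot be told apart and p-values measure the spread between passages. The comparison asks which of these genes differed in mRNA level once COX-1 was reduced.

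Between 25291505 and 27391538 reads were counted on genes per library. PTGS1 itself, the targeted gene, had 713, 658 and 641 counts in OV3/SCR and 456, 486 and 501 in OV3/COX1KD. Its mRNA level was 73.3% of the control by the fitted log2 fold change of -0.45 (SE 0.057, edgeR FDR = 1.34e-06). The study chose this knockdown clone for its efficient loss of COX-1 protein. It also reported a markedly weaker prostaglandin response of these cells to arachidonic acid. Neither can be read from mRNA counts. All 10 serous ovarian carcinoma markers examined, PAX8, WT1 and MUC16 among them, were above 3 counts in every library, and 6 leukocyte markers summed to between 1.01 and 2.15 CPM (reads scaled to the effective library size) in any library. The summed serous marker level was itself 4860 to 4900 CPM in OV3/SCR and 6216 to 6402 CPM in OV3/COX1KD. But the markers moved in both directions, 7 higher and 3 lower at an FDR under 0.01, against 25.8% and 22.1% of all tested genes. KRT8 went from a mean of 1502 to 2360 CPM, while PAX8 fell by 0.76 on the log2 scale (edgeR FDR = 4.29e-13) and WFDC2 and KRT7 were also lower. The part of these changes in the results was not tested. Only 3 of 8 fibroblast markers passed 3 counts in every library, and their summed level, most of it COL1A1, lay between 11.3 and 12.0 CPM in OV3/SCR and between 6.87 and 7.54 CPM in OV3/COX1KD. In bulk RNA, fewer cells expressing a gene and less RNA per cell cannot be told apart.

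Most of the set was lower in OV3/COX1KD, and a few of its best known members went the other way. Of the 38 genes, 35 had enough reads to be tested, and 21 were lower and 4 were higher in OV3/COX1KD at an FDR under 0.01 (quasi-likelihood test of edgeR, p-values adjusted over all 17309 genes tested). The same threshold called 22.1% of all tested genes lower and 25.8% higher. With a log2 fold change beyond 0.5 added, 14 members were lower and 4 higher, against 10% and 9.87% of all genes. Of these, 6 were lower and 1 higher by more than 2.5-fold, against 2.34% and 1.58% of all genes. The median log2 fold change was -0.39 over the 35 tested members and -0.0087 over all tested genes. The 4 members that rose were EGR1, EGR3, FOS and ETV4.

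A like split was seen among the more abundant members. Where the mean log2 CPM was 1 or more, 18 of 31 members were lower and 4 higher, while 25.4% of the 13012 genes of that class were lower and 32.3% higher. Scaling by total counts in place of TMM (edgeR's trimmed mean scaling) moved the share of higher genes among all calls from 53.9% to 41%, and the members then divided into 24 lower and 4 higher. The ranges of the 3 OV3/COX1KD and 3 OV3/SCR libraries did not overlap in 29 tested members, 25 of them lower and 4 higher, against 30.7% and 32.5% of all tested genes.

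**Figure D1:**
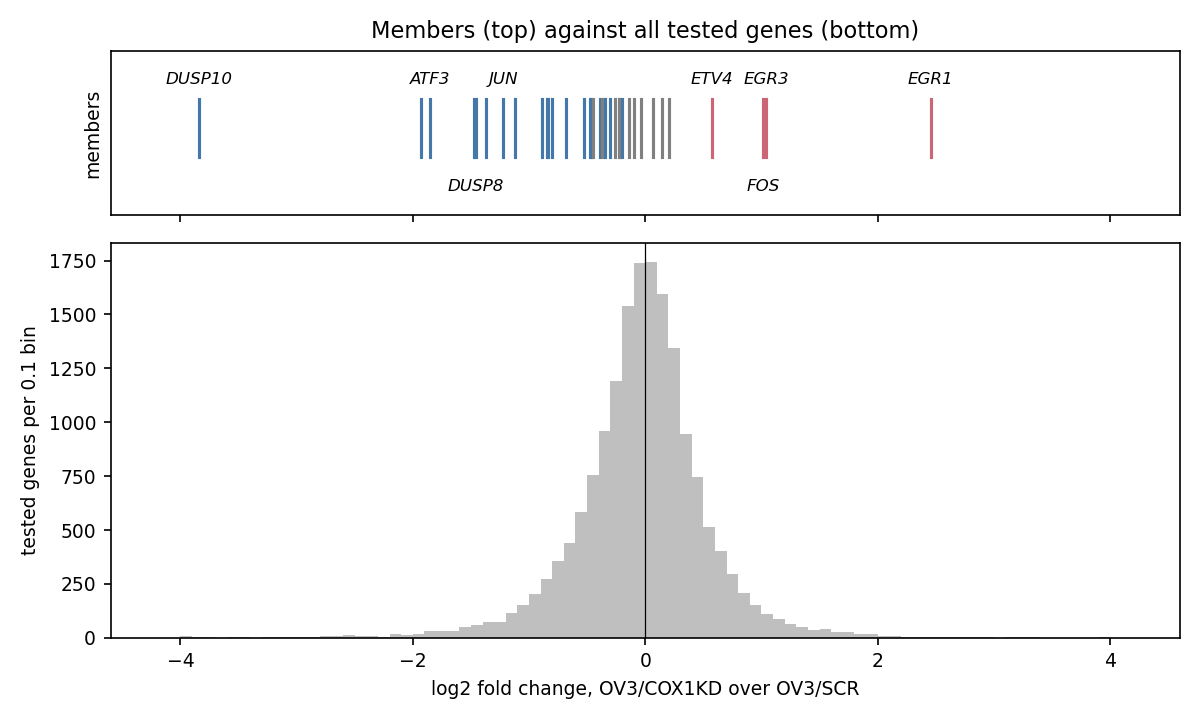
Log2 fold changes of OV3/COX1KD over OV3/SCR for the 35 tested members (top, each tick is 1 gene, red higher and blue lower at an FDR under 0.01, grey without a call) above the distribution of all 17309 tested genes (bottom, number of genes in bins of 0.1, with values beyond 4 in either direction placed in the outermost bins). The members lie mostly left of 0, with EGR1 at 2.46 and DUSP10 at -3.84 at the ends.

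The promoters of the set were read for the motifs of the factors that carry these signals, and the stretches shown are those that hold the SRF or CREB motif. SRF, with its ternary complex partners, binds the CArG box and relays ERK and serum signals, while CREB binds the cyclic AMP response element (CRE, TGACGTCA) and relays the cAMP signal of prostaglandin receptors. Promoter windows of 300 bases, 250 before and 50 after each annotated start, were taken from RefSeq on GRCh38.p14 for 31 of the 38 members (47 windows). ETV4, ETV5, DUSP4, DUSP5, FOSL1, IER3 and EGR3 had no entry. Both strands were searched. Only bases upstream of the start are printed, in the direction of the gene, with the motif in capitals.
EGR1, CArG boxes, chr5:138465354-138465425, plus strand: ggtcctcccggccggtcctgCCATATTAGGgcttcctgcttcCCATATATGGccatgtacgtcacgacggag
EGR2, CArG box, chr10:62816408-62816457, minus strand: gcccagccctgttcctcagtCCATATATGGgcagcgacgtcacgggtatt
SRF, CArG boxes, chr6:43171219-43171268, plus strand: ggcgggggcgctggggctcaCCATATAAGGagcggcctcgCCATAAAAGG
DUSP1, CRE, chr5:172771293-172771340, minus strand: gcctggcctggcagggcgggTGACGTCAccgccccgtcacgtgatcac
DUSP8, CREs, chr11:1572318-1572409, minus strand: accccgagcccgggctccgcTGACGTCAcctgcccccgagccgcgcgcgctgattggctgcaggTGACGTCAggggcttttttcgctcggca
MAFF, CRE, chr22:38201920-38201967, plus strand: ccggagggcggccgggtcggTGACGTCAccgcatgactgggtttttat
JUND, CRE, chr19:18281795-18281842, minus strand: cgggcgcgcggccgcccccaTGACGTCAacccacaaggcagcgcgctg

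A CArG box lay in the windows of 3 members, EGR1, EGR2 and SRF, and in 1.29% of all 35116 promoter windows. EGR1 and SRF each held a pair, in EGR1 starting at 105 and 83 bases and in SRF at 30 and 10 bases before the start. The full CRE was found in 4 members, DUSP1, DUSP8, MAFF and JUND, and in 1.85% of all windows. An AP-1 site (TGACTCA, which shares no full match with the CRE) was found in FOSL2, SPRED2 and SPRED3 and in 4.95% of all windows, and an ETS site (CCGGAAGT) in none of the members' windows and in 4.14% of all. A match is a run of letters and not a measured site, and these windows do not reach the more distal elements of these genes.

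EGR1 and EGR3 both rose. EGR1 (ENSG00000120738, GRCh37 chr5:137801168-137804992), a zinc finger factor and an early target of ERK signaling, had read counts of 148, 167 and 134 in OV3/SCR and of 730, 809 and 877 in OV3/COX1KD. The groups were far apart, with no overlap. Its level rose from 5.72 ± 0.629 to 31.4 ± 2.10 TMM-normalized CPM (SD, n = 3), a 5.49-fold rise with a log2 fold change of 2.46 (SE 0.080, edgeR FDR = 2.63e-15). Among the tested members it was the only one that rose by more than 2.5-fold.

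EGR3 (GRCh37 chr8:22545172-22550993), which shares the DNA-binding fingers of EGR1, had 71, 71 and 72 counts in OV3/SCR and 150, 124 and 157 in OV3/COX1KD. The groups did not overlap and the log2 fold change was 1.04 (SE 0.13, edgeR FDR = 7.90e-07). EGR2, the third member of the family, was near the limit of detection, with 3, 8 and 1 counts against 8, 20 and 13. It had too few reads to be kept for the test, and its summed reads gave a ratio of 3.49 with an exact counting interval from 1.80 to 7.30. Tested without the filter, EGR2 had an edgeR FDR of 6.61e-04, with a log2 fold change of 1.79. The same fit gave EGR1 an edgeR FDR of 7.39e-221, against 2.63e-15 with the filter. FDR values of that fit are thus not on the scale of the others.

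SRF activity was not measured, and the mRNA of SRF, which binds the CArG box, fell slightly. Its counts were 1093, 1129 and 983 in OV3/SCR and 881, 885 and 962 in OV3/COX1KD, a log2 fold change of -0.20 (SE 0.050, edgeR FDR = 0.00202). This small fall missed the threshold when OV3/SCR replicate 1 (FDR = 0.0105), OV3/SCR replicate 2 (FDR = 0.024) or OV3/COX1KD replicate 1 (FDR = 0.0101) was left out.

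The IER genes, short immediate-early genes with few or no introns, behaved differently from each other. IER3, an early gene that modulates ERK signaling and survival, had 368, 366 and 341 counts in OV3/SCR and 189, 198 and 203 in OV3/COX1KD, and fell to 56.1% of the control (log2 fold change -0.83, SE 0.076, edgeR FDR = 1.44e-08). IER5 fell less, with a log2 fold change of -0.35 (SE 0.042, edgeR FDR = 7.33e-07) on counts of 1281 to 1333 against 989 to 1048. IER2 had 576, 517 and 506 counts in OV3/SCR and 558, 513 and 564 in OV3/COX1KD. Its groups overlapped, and the log2 fold change of 0.064 had a 95% interval from -0.062 to 0.19 (edgeR FDR = 0.377) and turned to -0.014 with total count scaling. Annotated exons on the opposite strand cover 52.2% of the exon length of IER2 and 38.9% of that of IER3, and reads of such partners cannot be told apart if the counting ignored strand.

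**Figure D2:**
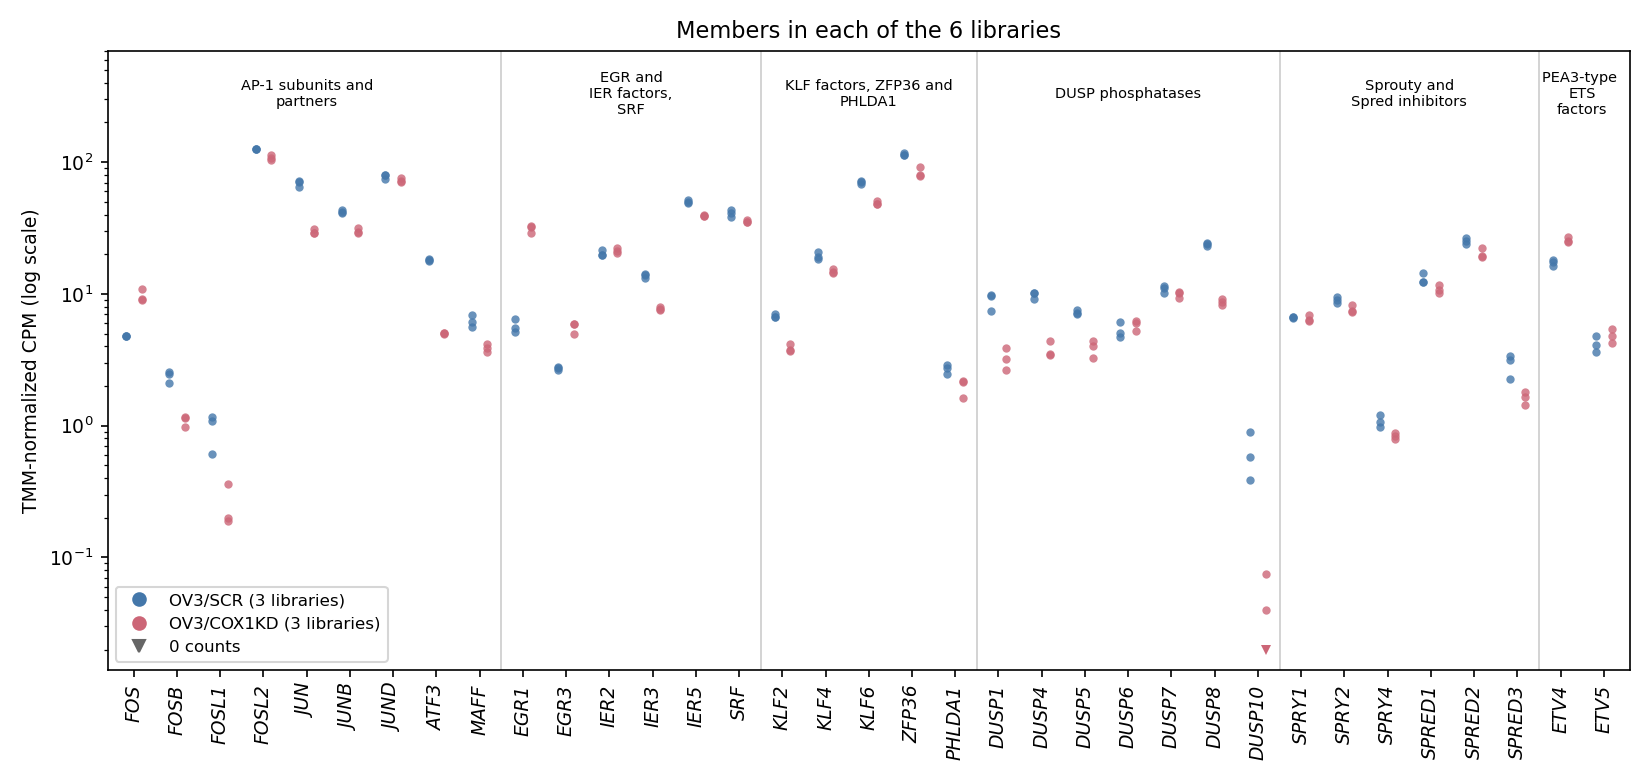
TMM-normalized CPM on a log scale for each tested member in each library, blue for the 3 OV3/SCR and red for the 3 OV3/COX1KD libraries, with a triangle for a library with 0 counts. EGR1, EGR3, FOS and ETV4 are the genes whose red points all lie above the blue, and the widest gap downward is that of DUSP10.

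Among the FOS and JUN genes of AP-1, FOS rose, while FOSB, FOSL1, FOSL2, JUN and JUNB fell and JUND had no call. FOS (ENSG00000170345, GRCh37 chr14:75745529-75748933), the founding subunit, had 127, 124 and 123 counts in OV3/SCR and 229, 271 and 238 in OV3/COX1KD. It was higher in each OV3/COX1KD library, with a 2.02-fold rise (log2 fold change 1.01, SE 0.10, edgeR FDR = 5.29e-08). The other 3 genes of the FOS family fell. FOSB had 68, 55 and 64 counts against 29, 29 and 26, a log2 fold change of -1.12 (SE 0.19, edgeR FDR = 4.37e-05).

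FOSL1 encodes FRA-1, a subunit stabilized by ERK and common in invasive cells. It was scarce in this line, with 31, 16 and 28 counts in OV3/SCR and 5, 9 and 5 in OV3/COX1KD, and its log2 fold change was -1.93 (SE 0.37, edgeR FDR = 1.73e-04). FOSL2, which encodes FRA-2, was by far the most abundant of the family and fell least, from counts of 3250 to 3329 to counts of 2601 to 2847 (log2 fold change -0.22, SE 0.035, edgeR FDR = 2.02e-05). No library of one group reached the range of the other in any of these 4 genes.

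Of the JUN genes, JUN itself changed most. JUN (ENSG00000177606, GRCh37 chr1:59242517-59249720) had 1739, 1881 and 1816 counts in OV3/SCR and 781, 728 and 772 in OV3/COX1KD. Its level fell from 69.2 ± 3.59 to 29.7 ± 1.17 CPM (SD, n = 3), a log2 fold change of -1.22 (SE 0.048, edgeR FDR = 4.51e-14). JUNB, with 1116, 1070 and 1116 counts against 742, 732 and 846, fell to 71.8% of the control (log2 fold change -0.48, SE 0.048, edgeR FDR = 5.90e-08). Exons of HOOK2 on the opposite strand cover 14.2% of JUNB. JUND, a less inducible subunit, had 2114, 1957 and 2060 counts in OV3/SCR and 1900, 1815 and 1883 in OV3/COX1KD. Its scaled levels overlapped between the groups, and its log2 fold change of -0.099 (95% interval -0.18 to -0.018, edgeR FDR = 0.0349) passed the threshold with total count scaling (FDR = 5.53e-04) and with offsets for GC content and gene length (FDR = 8.27e-04).

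ATF3 (ENSG00000162772, GRCh37 chr1:212738676-212794119), a stress-induced bZIP factor that pairs with JUN, fell in all 3 OV3/COX1KD libraries. Its counts were 477, 473 and 473 in OV3/SCR and 126, 127 and 133 in OV3/COX1KD. This was a fall to 27.7% of the control, with a log2 fold change of -1.85 (SE 0.077, edgeR FDR = 1.02e-13). MAFF, a small MAF protein without an activation domain, had 163, 181 and 146 counts against 104, 90 and 104 (log2 fold change -0.69, SE 0.12, edgeR FDR = 5.08e-05). Some heat shock genes, which respond to stress and handling, were also lower in OV3/COX1KD. The summed level of the 8 examined, most of it HSP90AA1 and HSPA8, was 6547 to 6719 CPM in OV3/SCR and 5316 to 5580 CPM in OV3/COX1KD. Of the 7 tested, 4 fell and none rose at an FDR under 0.01, against 22.1% and 25.8% of all tested genes. HSPA1B (log2 fold change -0.013), DNAJB1 (0.041) and HSPB1 (0.0089) had no call. The part of the heat shock genes in the change of the stress-responsive members was not tested.

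Levels per kilobase of exon show how these changes altered the make-up of each family. JUND made up 49.0% ± 1.12 of the JUN family CPM per kb in OV3/SCR and 60.5% ± 1.21 in OV3/COX1KD, while JUN went from 23.15% ± 1.28 to 13.1% ± 0.271 (SD, n = 3). The summed JUN family level was 82.5 ± 1.57 CPM per kb in OV3/SCR and 62.4 ± 1.21 in OV3/COX1KD. In the FOS family FOSL2 held 87.8% ± 0.902 and then 81.8% ± 2.19, and FOS 7.50% ± 0.0687 and then 16.4% ± 1.86. The summed FOS family level was 19.9 ± 0.186 and 18.4 ± 0.437 CPM per kb. Shares of FOS, JUN, JUND and FOSL2 did not overlap between the groups. The EGR family sum, by contrast, went from 2.404 ± 0.235 to 11.3 ± 0.668 CPM per kb, and EGR1 was 88.8% ± 0.832 of it in OV3/COX1KD.

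**Figure D3:**
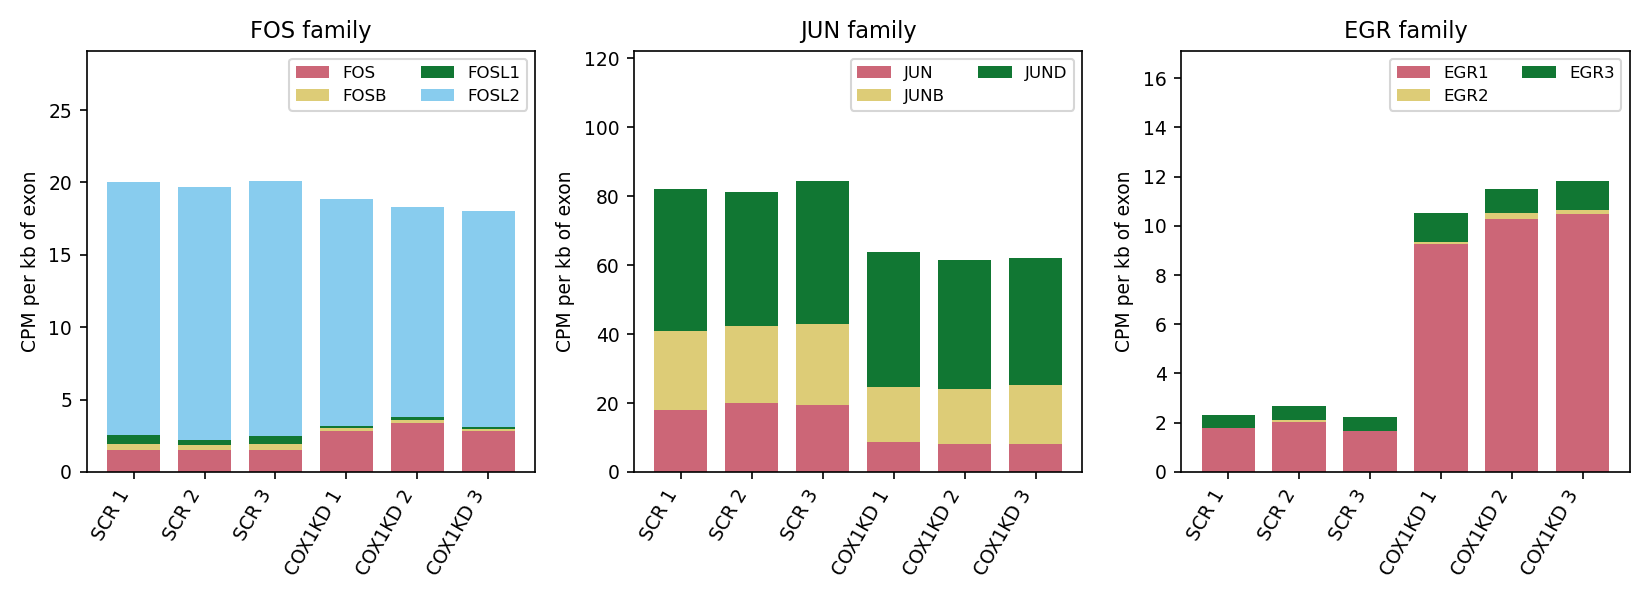
CPM per kilobase of exon for the FOS, JUN and EGR families in each library (SCR, OV3/SCR; COX1KD, OV3/COX1KD), stacked by gene. The JUN family sum is 82.5 CPM per kb in OV3/SCR and 62.4 in OV3/COX1KD, the FOS family sum is mostly FOSL2 in all 6 libraries, and the EGR family sum rises from 2.404 to 11.3, most of it EGR1.

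Across the whole set the order of levels in OV3/SCR was headed by ZFP36, at 58.0 ± 0.768 CPM per kb. JUND followed at 40.45 ± 1.32, JUNB at 23.0 ± 0.582, JUN at 19.1 ± 0.990 and FOSL2 at 17.5 ± 0.0604 CPM per kb. Each gap between neighbors in this order was larger than the SDs of both. The SDs cover the spread between passages only, while the order between genes also depends on the exon lengths used. At the other end were DUSP10 (0.220 ± 0.0919), SPRY4 (0.165 ± 0.0171), EGR2 (0.0412 ± 0.0374), DUSP2 and ETV1, the last pair with no read in OV3/SCR. SPRY1 and SPRED1 had the same level, 1.67 CPM per kb, and did not differ beyond their spread. EGR1, at 1.82 ± 0.200, stood 21st of the 38 in OV3/SCR.

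The KLF factors and the mRNA-destabilizing protein ZFP36 fell by moderate amounts. KLF2, a zinc finger factor induced through the ERK5 kinase, had 177, 173 and 182 counts in OV3/SCR and 94, 93 and 111 in OV3/COX1KD (log2 fold change -0.80, SE 0.11, edgeR FDR = 2.50e-06). KLF6, with 1921, 1780 and 1839 counts against 1275, 1200 and 1287, had a log2 fold change of -0.53 (SE 0.040, edgeR FDR = 1.01e-09). KLF4, a factor tied to epithelial differentiation, went from 487, 545 and 493 counts to 368, 359 and 411 (log2 fold change -0.39, SE 0.067, edgeR FDR = 4.97e-05).

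ZFP36 encodes tristetraprolin, which binds AU-rich elements and shortens the life of many immediate-early and cytokine mRNAs. Its counts were 3103, 2965 and 2941 in OV3/SCR and 1992, 2286 and 2087 in OV3/COX1KD, a fall to 72.3% of the control (log2 fold change -0.47, SE 0.046, edgeR FDR = 3.69e-08). PHLDA1, another gene read as an ERK output, had 77, 64 and 71 counts against 55, 54 and 43. Its groups did not overlap, but the log2 fold change of -0.45 (95% interval -0.80 to -0.091) did not pass the threshold (edgeR FDR = 0.03).

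The DUSP genes encode phosphatases that remove the activating phosphates from MAP kinases, and they differ in which kinase they prefer and where in the cell they act. DUSP1, DUSP4 and DUSP5, inducible enzymes of the nucleus, fell. DUSP1 (ENSG00000120129, GRCh37 chr5:172195099-172198198), which acts on p38, JNK and ERK, had 259, 194 and 253 counts in OV3/SCR and 97, 81 and 71 in OV3/COX1KD, a fall to 36.1% (log2 fold change -1.47, SE 0.14, edgeR FDR = 1.61e-08). DUSP4, its nuclear relative, had 270, 237 and 261 counts against 87, 87 and 117 (log2 fold change -1.37, SE 0.11, edgeR FDR = 1.79e-09). DUSP5, a nuclear phosphatase selective for ERK, went from 186, 197 and 184 to 111, 101 and 87 (log2 fold change -0.89, SE 0.12, edgeR FDR = 1.82e-06).

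The phosphatases that prefer JNK and p38 fell as well. DUSP8 (GRCh37 chr11:1575281-1593501) had 650, 618 and 600 counts in OV3/SCR and 229, 217 and 219 in OV3/COX1KD, with a log2 fold change of -1.46 (SE 0.067, edgeR FDR = 4.20e-13). DUSP10 was scarce, with 24, 15 and 10 counts against 1, 0 and 2, and the edgeR FDR was 2.99e-05. Its summed reads were 49 and 3, a level 16.0-fold lower in OV3/COX1KD with an exact counting interval from 5.16 to 80.2, which covers counting error only.

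The ERK-selective cytoplasmic phosphatases stood apart from these. DUSP6, the classical feedback inhibitor of ERK, had 162, 131 and 122 counts in OV3/SCR and 158, 131 and 160 in OV3/COX1KD, and the groups overlapped. The log2 fold change was 0.15 with a 95% interval from -0.10 to 0.39 (edgeR FDR = 0.303), and exons on the opposite strand cover 28.6% of DUSP6. DUSP7, also cytoplasmic, had 265 to 297 counts against 247 to 259, with a log2 fold change of -0.14 and an interval from -0.31 to 0.030 (edgeR FDR = 0.148). Of the summed CPM per kb of the 8 DUSP genes, DUSP6 made up 8.05% ± 0.866 in OV3/SCR and 17.4% ± 1.76 in OV3/COX1KD, and DUSP7 11.35% ± 0.367 and 20.1% ± 1.09 (SD, n = 3). DUSP2, another inducible nuclear phosphatase, had 0 or 1 count in every library, and no fold change is given.

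Sprouty and Spred proteins block RAS and RAF activation at the membrane. Of their 6 tested genes, 2 were lower and none higher at an FDR under 0.01, against 22.1% and 25.8% of all tested genes. SPRED3 had 84, 88 and 58 counts in OV3/SCR and 36, 41 and 48 in OV3/COX1KD, a log2 fold change of -0.85 (SE 0.19, edgeR FDR = 6.59e-04). SPRED2 went from 633 to 689 counts to 479 to 594 (log2 fold change -0.31, SE 0.065, edgeR FDR = 4.62e-04). No other gene of the group passed the threshold.

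SPRY2 had 228, 234 and 244 counts in OV3/SCR and 209, 186 and 195 in OV3/COX1KD, and its log2 fold change of -0.23 (95% interval -0.41 to -0.041, edgeR FDR = 0.0345) passed the threshold with total count scaling (FDR = 0.00566) and with the GC and length offsets (FDR = 0.00926). SPRED1, with 381, 320 and 317 counts against 268, 253 and 313, had a log2 fold change of -0.26 (95% interval -0.43 to -0.082, edgeR FDR = 0.0128), and 5 of the 14 alternatives called it lower, among them the one without OV3/COX1KD replicate 3 (FDR = 0.00648). SPRY4 had 26, 28 and 31 counts against 21, 22 and 21 (log2 fold change -0.38, interval -0.87 to 0.12, edgeR FDR = 0.183). SPRY1 was at 169 to 177 counts and 158 to 173 counts, with a log2 fold change of -0.036 and an interval from -0.23 to 0.16.

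The ETS factors of the PEA3 type, which ERK signaling both induces and activates, did not fall. ETV4 (ENSG00000175832, GRCh37 chr17:41605212-41656988) had 464, 470 and 421 counts in OV3/SCR and 628, 632 and 715 in OV3/COX1KD. It was higher in every OV3/COX1KD library, a 1.49-fold rise (log2 fold change 0.57, SE 0.059, edgeR FDR = 8.01e-08). ETV5 had 128, 95 and 105 counts against 137, 106 and 127, and its log2 fold change of 0.21 had an interval from -0.073 to 0.48 (edgeR FDR = 0.194). ETV1 had at most 1 count in any library.

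**Figure D4:**
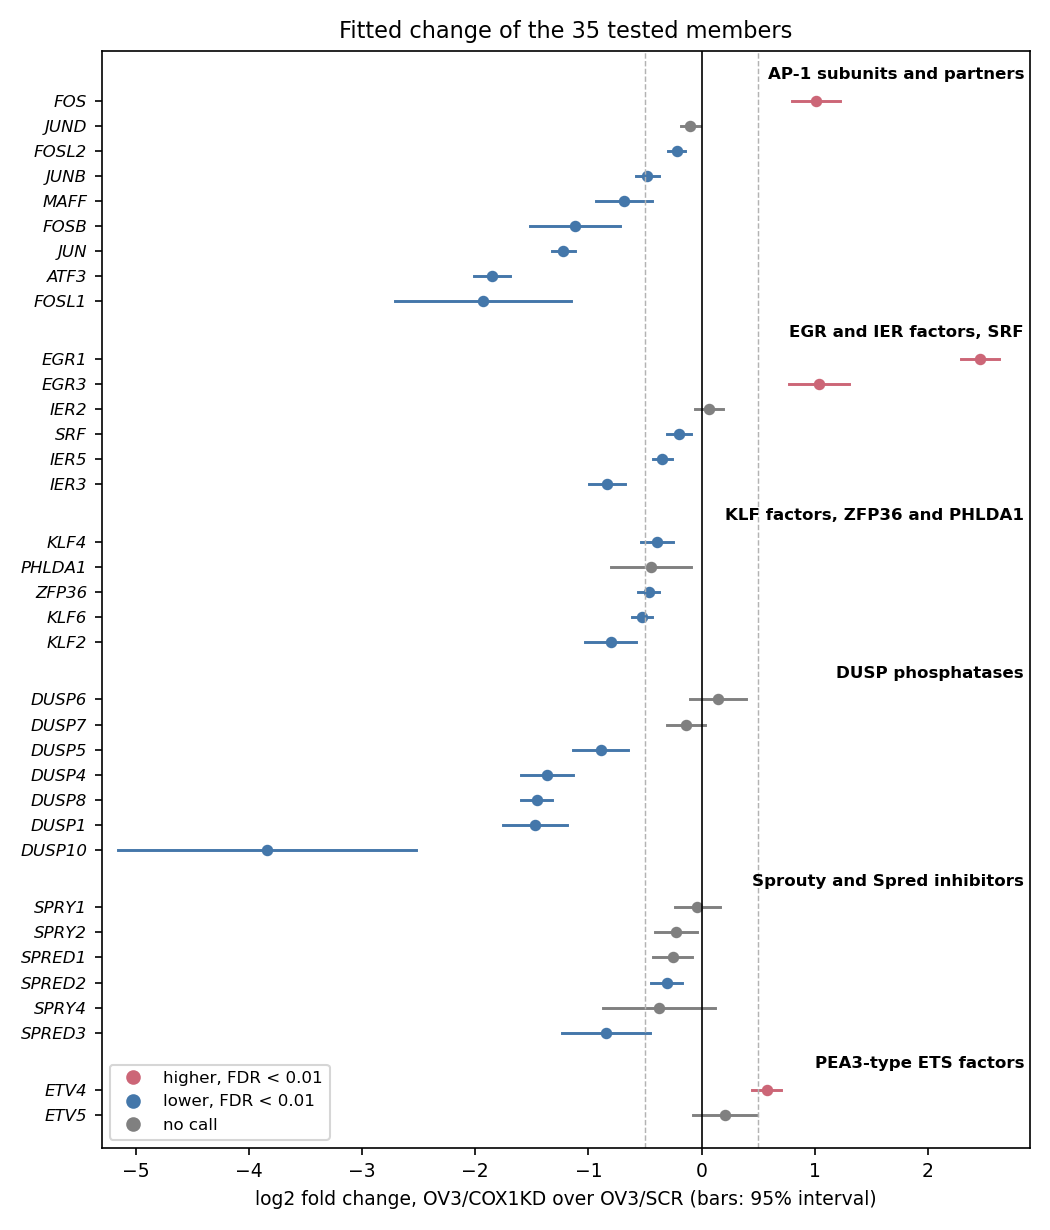
Fitted log2 fold changes of OV3/COX1KD over OV3/SCR with 95% intervals for the 35 tested members, ordered within each role, red higher and blue lower at an FDR under 0.01 and grey without a call, with dashed lines at 0.5 in either direction. DUSP1, DUSP4, DUSP5, DUSP8 and DUSP10 lie left of the dashed line while DUSP6 and DUSP7 have intervals that include 0.

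The surroundings of the called members were also read. The median log2 fold change of the tested genes within 2 Mb was 0.045 around EGR1, 0.11 around FOS, 0.053 around ATF3 and 0.43 around JUN, where only 5 neighbors were tested. Around the 25 called members it ranged from -0.19 to 0.43. A median over many genes lies near 0 by averaging, so these values describe the surroundings and were not set against the members in a test.

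Genes of the same pathways outside the set were read from lists of their own. Of 21 other immediate-early and serum-response genes, 18 were tested, and 10 were lower and 2 higher at an FDR under 0.01, with a median log2 fold change of -0.36. Of all tested genes 22.1% were lower and 25.8% higher, with a median of -0.0087. CSRNP1, PLK2 and RHOB had the largest falls among the abundant ones. CSRNP1, an AXIN-induced nuclear factor, had a log2 fold change of -0.99 (SE 0.075, edgeR FDR = 8.81e-10), PLK2, a stress-responsive polo-like kinase, had -0.98 (SE 0.035, edgeR FDR = 8.35e-15), and RHOB, an immediate-early small GTPase, had -0.85 (SE 0.031, edgeR FDR = 1.81e-14). The 2 that rose were ZFP36L1, a relative of ZFP36, at 0.28 (SE 0.030, edgeR FDR = 1.15e-07), and TRIB1, a pseudokinase that binds MEK, at 0.27 (SE 0.057, edgeR FDR = 3.92e-04).

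Of 14 other genes that follow MEK activity in tumor cells, 8 were lower and 1 higher, with a median log2 fold change of -0.47. After CCND1 the largest falls among abundant genes were those of the calcium-binding protein S100A6 (log2 fold change -0.90, SE 0.036, edgeR FDR = 4.51e-14) and the membrane protein FXYD5 (-0.88, SE 0.063, edgeR FDR = 4.36e-10), and KANK1 was the gene that rose (0.35, SE 0.052, edgeR FDR = 1.04e-05). A further list of 11 genes held other dual-specificity phosphatases along with SPRY3, RASA2 and RASAL2. It was drawn by family, and not by whether MAPK signaling induces a gene. Of these 11, 4 were lower and 3 higher, against 22.1% and 25.8% of all tested genes. DUSP9, another ERK-selective cytoplasmic phosphatase, rose from 116, 109 and 104 counts to 213, 219 and 232 (log2 fold change 1.04, SE 0.097, edgeR FDR = 1.72e-08), and DUSP14 fell by 0.39 on the log2 scale (SE 0.059, edgeR FDR = 1.06e-05).

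The kinases of the cascade changed little in size. Of 26 genes from adaptors and RAS to ERK and its substrates, 10 were higher and 5 lower, none beyond a log2 fold change of 0.5, and the median was -0.012. Of all tested genes 25.8% were higher and 22.1% lower. The adaptor gene GAB1 was higher at 0.42 (SE 0.067, edgeR FDR = 2.09e-05), as was the ERK gene MAPK3 at 0.36 (SE 0.052, edgeR FDR = 7.12e-06), while MAPK7, the ERK5 gene, was lower at -0.38 (SE 0.049, edgeR FDR = 1.38e-06). Among 19 JNK and p38 genes, 4 were higher and 7 lower, against the same shares of all tested genes. The p38 kinase gene MAPK11 (-0.70, SE 0.068, edgeR FDR = 3.06e-08) and the JNK scaffold gene MAPK8IP1 (-0.68, SE 0.066, edgeR FDR = 3.29e-08) fell most, and MAPK10, a JNK gene at low level, rose most (1.35, SE 0.19, edgeR FDR = 5.06e-06).

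The partners of SRF and AP-1 were mixed, where 25.8% of all tested genes were higher and 22.1% lower. Of 5 tested SRF partners, ELK3 (0.73, SE 0.081, edgeR FDR = 2.30e-07) and ELK1 (0.23, SE 0.058, edgeR FDR = 0.00225) were higher, and ELK4 (-0.29, SE 0.038, edgeR FDR = 1.60e-06) and MKL1 (-0.20, SE 0.047, edgeR FDR = 9.45e-04) were lower. Among the bZIP partners of AP-1, ATF2 was higher, with a log2 fold change of 0.33 (SE 0.049, edgeR FDR = 9.21e-06), and JDP2 (-0.43, SE 0.051, edgeR FDR = 5.84e-07) and MAFG (-0.36, SE 0.046, edgeR FDR = 1.29e-06) were lower. MYOCD and MAF were on these lists and were not analysed here.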

How the data were processed

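RNA was sequenced from OV3/SCR and OV3/COX1KD cells (n = 3 passages each), grouped by the labels. Per the labels and the study's methods, the authors used TopHat2 for alignment to hg19 and HTSeq for counting reads per gene, and the deposited values are raw counts. The annotation and the strand setting of the counting are not given in the sources used here, and reads shared by overlapping genes may be lost or misplaced.

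The test was edgeR 4.0.16 (R 4.3.3) with TMM factors from 0.970 to 1.035, filterByExpr (17309 of 34811 genes kept), and glmQLFit and glmQLFTest on a model of condition alone. Adjusted p-values (FDR) are Benjamini-Hochberg values over all genes kept, and calls were made at an FDR under 0.01. The study called genes at that FDR with a fold change above 2.5, and a log2 fold change of 0.5 is the limit by which it colored genes. Both limits are used where stated. The SE is the log2 fold change divided by the square root of F, and intervals are 95%. Levels per kb used merged exon lengths from GENCODE 44 on GRCh37, the build of hg19, in which 33556 genes had an entry. At this depth 3 counts correspond to 0.1125 to 0.1197 CPM. Intervals on counts cover counting error only, since PCR reads are not independent molecules.

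All 38 members are accounted for. Counts in every library are given for members past both thresholds and for those fixed for their roles, and up to 3 rises and 3 falls were named from each other list among genes whose mean log2 CPM was 1 or more. The members and lists were chosen with earlier results of these data known. The study used DESeq2, which was run here (1.42.0) as an alternative. The other alternatives were RLE factors, total count scaling, no filter, at least 10 counts in every library, the replicate number as a block, GC and length offsets without and with the block, and leaving out each library.

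No library was a repeat of another: within a condition the chi-square per degree of freedom between libraries was 1.82 to 6.40. The highest values, 4.92 and 6.40, both involved OV3/COX1KD replicate 2. Without that library 8989 of all genes were called, against 8293 with it. The scripts were tested on simulated data. One gene of the bZIP partner list is not reported here.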

Additional observations from a re-analysis of the deposited data

How the results depend on the processing

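Over the 14 alternatives, the members called lower numbered 20 to 24 and those called higher 4 or 5, and each of EGR1, EGR3, FOS and ETV4 kept its call in all of them. The fifth higher gene was EGR2, which entered the test without the filter and without OV3/SCR replicate 2 or OV3/COX1KD replicate 1. IER2, which had no call, changed sign with total count scaling, to -0.014. SRF lost its call in 3 alternatives, without OV3/SCR replicate 1 (-0.20), OV3/SCR replicate 2 (-0.15) or OV3/COX1KD replicate 1 (-0.19), and JUND, SPRY2 and SPRED1 gained one with total count scaling. ETV4 fell under the limit of 0.5 there, which left 3 members higher beyond it. Requiring 10 counts in every library removed FOSL1 and DUSP10 from the test. The labels speak of 3 replicate pairs, but libraries with the same number deviated together with correlations of only 0.00221, 0.0444 and 0.0194 across genes, so the numbers were not taken as a pairing. With the replicate number as a block the members called were 4 higher and 21 lower, the same 25 genes, and 8233 of all genes were called against 8293 without it. DESeq2 also called the same 25 genes. PTGS1 ranged from -0.53 to -0.41 and kept its call in all 14. SPRY4, with 21 to 31 counts in a library, had a 95% interval from -0.87 to 0.12, so neither a clear fall nor no change can be read from it.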
